A study of Saccharomyces cerevisiae with 23 samples.

Results

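Unstressed yeast cells expressing Cyc8-4KtoR, a form of the corepressor Cyc8 in which the lysines K735R, K736R, K738R and K748R are arginines that cannot carry SUMO, were compared with unstressed wild-type cells. The comparison rests on the 2 arrays of the 23 in the series whose labels name this CYC8 allele alone at 0 min, replicates A and B, each hybridized against the 0 min wild-type culture of its own replicate set. All strains derive from BY4741, a laboratory MATa strain, and carry SMT3 (the yeast SUMO gene) with a hexahistidine and FLAG tag marked by HIS3MX6. In all strains TUP1 and CYC8 were put back at their own loci, under their own promoters, with the markers URA3 and LEU2, so that the wild type carries TUP1::URA3 and CYC8::LEU2 and the mutant TUP1::URA3 and the lysine-to-arginine CYC8::LEU2. The cells grew in yeast complete medium and were harvested before sorbitol was added. Replicates A and B are cultures of separate isolates, the mutant RNA was labeled with Cy3 in A and with Cy5 in B, and wild-type RNA took the other dye. For comparison, 2 arrays hold unstressed Tup1K270R cells, 2 hold the unstressed Tup1K270R/Cyc8-4KtoR double mutant, and 1 compares both wild-type cultures, replicate B over replicate A.

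Cyc8, also called Ssn6, forms a complex with Tup1 that does not bind DNA itself. Repressors that do bind DNA, such as Mig1 at glucose-repressed genes, Rfx1 at DNA damage genes and Sko1 at osmotic stress genes, recruit it and keep their targets low. Both proteins are modified with the small protein SUMO, and the comparison asks which transcripts differ when Cyc8 has lost the lysines that take it.

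Values are log2 ratios of mutant over wild type after background subtraction and a smooth (loess) correction within each array, averaged over the 2 spots of a probe. A probe is said to rise or fall where limma, fitted over 22 arrays in 11 groups of 2, gave a Benjamini-Hochberg adjusted p under 0.05. Replicates with the same letter share their reference culture and dye, and a second fit took that letter as a block. The block takes the shared difference between sets A and B, with that between the wild-type cultures, out of the error. The spread of the wild-type cultures still enters each mean against wild type, so p-values with the block can understate it. On the 2 arrays 96.1% and 95.2% of spots exceeded background clearly ("well above background" in the scanner's terms) in each channel and 0 were saturated. With 2 arrays, precision is limited by their number. All 6 a-specific markers examined, which cells of this mating type express, were well above background in every channel of both arrays. The 4 alpha-specific markers were also above it, at 11 to 31 intensity units for MF(ALPHA)1 and MF(ALPHA)2 and at 260 to 338 for STE3 and SAG1. The median log2 ratio of each of the 16 chromosomes lay between −0.05 and 0.02 in replicate A and between −0.05 and 0.01 in replicate B, and the region from YDR211W to YDR261C, left out because another strain of the series carries it in extra copies, does not enter.

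The mutated gene itself cannot serve as a check of the labels, because its probe does not tell the alleles apart. The CYC8 probe gave 0.91 in A and 0.94 in B (mean 0.92 ± 0.60, limma's standard error, adjusted p = 1), and the LEU2 probe, which reads the marker inserted beside CYC8, gave 1.23 and 0.84. The wild-type cultures differed from each other too: wild type B lay 1.26 below wild type A for CYC8, more than the mutant ratios, and 0.91 below it for LEU2. Placed on 1 scale with wild type A at 0, CYC8 was at −1.26 in wild type B, 0.91 in mutant A and −0.32 in mutant B, so that the mutant and wild-type cultures overlapped. URA3, the marker beside TUP1, was at −0.72 in A and 0.88 in B, and TUP1 at −0.09 and 1.05. SMT3 was at −0.11 and 0.11.

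Few transcripts moved. Of 6129 probes tested, 91.4% had a mean within 0.25 log2 units of 0, and 18 (0.294%) passed the test, 10 higher in the mutant (0.163%) and 8 lower (0.131%). Without adjustment, limma's p was under 0.05 for 398 probes (6.49%), of which 218 were higher (3.56%) and 180 lower (2.94%). With the replicate block 76 probes passed (1.24%), 49 higher (0.799%) and 27 lower (0.441%), and all 18 were among them. These calls were lost under other processing of the same scans: 0 probes passed with normexp background correction of median intensities before loess, hereafter normexp (295 had a p under 0.05 before adjustment) and 0 with the deposited log ratios (150). Without replicate A 0 probes passed, without replicate B 11 did, and with only the 6 mutant arrays at 0 min in the fit 0 did. Without the replicate B arrays of the double mutant, a group outside the comparison, 4 probes passed, and with its 30 and 60 min arrays exchanged, as other labels place them, 6 did.

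The methods' cutoff of 0.65, or 1.57-fold, on the mean of both replicates was passed by 97 probes (1.58%), 72 higher (1.17%) and 25 lower (0.408%). Of these, 20 passed it in each replicate (0.326%), 15 higher (0.245%) and 5 lower (0.0816%). Among the higher ones TKL2, a minor transketolase of the pentose phosphate pathway, was at 0.70 and 0.65 (adjusted p = 0.138, and 0.0578 with the block). For FRE5, YDR095C, YFL015C, YKR015C, YMR245W, YPR027C and YPR197C the wild type was not well above background on either array, so that no size is given. On the array of wild type against wild type, which has no averaging, 71 probes passed it, while 201 did on the array of replicate A and 80 on that of replicate B. Of the 72 higher probes 54 lay higher in A than in B, and of the 25 lower probes 14 lay lower in A than in B. Over all probes the log2 ratios had an SD of 0.277 in A, 0.228 in B and 0.235 between the wild-type cultures, and A and B correlated at r = 0.104 across probes, which are not independent replicates (−0.04 with the deposited log ratios).

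**Figure D1:**
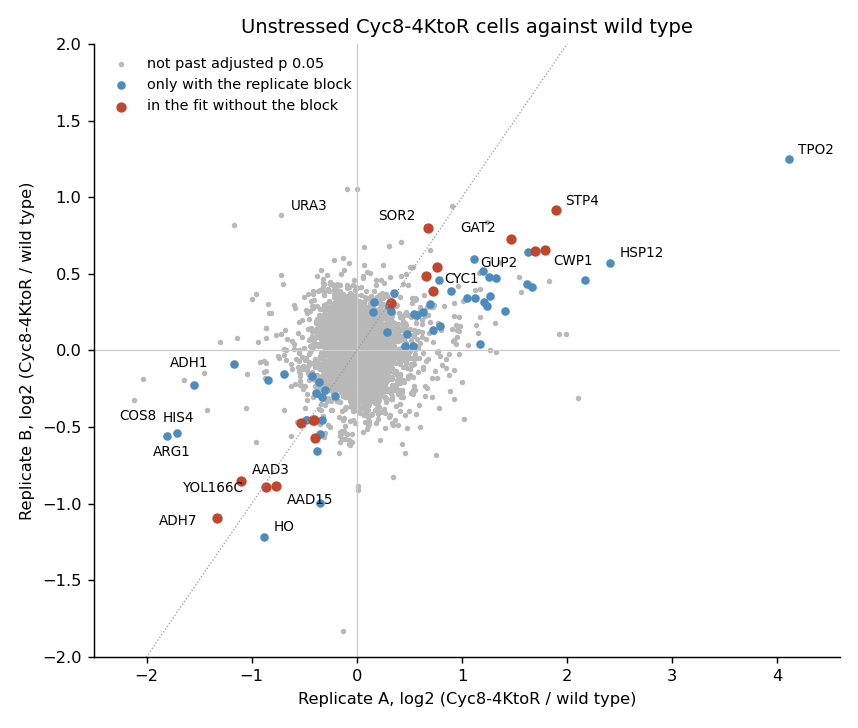
Log2 ratio of Cyc8-4KtoR over wild type at 0 min in replicate A (horizontal) and replicate B (vertical), 1 point a probe, for probes well above background on both arrays in both channels. Red points passed limma's adjusted p in the fit without the block, blue points only with the replicate block, and the dotted line marks equal values. TPO2 lies farthest to the right, at 4.11 in A and 1.25 in B, and ADH7 at −1.33 and −1.09.

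Of the 18 probes that passed, 17 were well above background on both arrays in both channels. The other, YPR027C, was not well above background on either array in either channel, and its size is not given. The 4 unstressed cultures were joined on a scale through the array of wild type against wild type, which was not dye-swapped. On that scale both mutant cultures lay outside both wild-type cultures for all 17. The scale uses the same mutant ratios by which the 17 were selected, and adds only the difference between the wild-type cultures. The separation is therefore not a separate test of the 17. It held for 27.1% of all probes, which were not selected in this way and give no baseline for the 17.

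The genes that fell were led by ADH7 and 2 aryl-alcohol dehydrogenase genes. ADH7 (YCR105W), which encodes a NADPH-dependent cinnamyl alcohol dehydrogenase, was at −1.33 in A and −1.09 in B, a mean of −1.21 ± 0.17 (SD, n = 2) or 2.32-fold lower (limma, adjusted p = 0.00156). Its probe was dim, with 19.4 units in the mutant and 36.2 in the wild type on array A, and 18.7 and 41.5 on array B. AAD3 (YCR107W) was at −1.10 and −0.86 (mean −0.98 ± 0.17, SD, adjusted p = 0.00436), and AAD15 (YOL165C) at −0.77 and −0.88 (mean −0.82 ± 0.08, SD, adjusted p = 0.00156). Both encode putative aryl-alcohol dehydrogenases, of a family whose members are alike in sequence, so that a probe may read more than its own gene. The other family members did not pass: AAD4 had a mean of −0.23, AAD14 of −0.13, AAD6 of −0.08 and AAD10 of 0.15. In bulk RNA, fewer cells that express a gene and less RNA per cell cannot be told apart.

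RDS1 (YCR106W), which encodes a zinc cluster transcription factor, was at −0.53 and −0.48 (adjusted p = 0.0432). YOL166C, an open reading frame of unknown function, was at −0.86 and −0.89 (adjusted p = 0.00156), and SRY1 (YKL218C), which encodes 3-hydroxyaspartate dehydratase, at −0.41 and −0.46 (adjusted p = 0.0205). The replicates of each of these genes lay close together. Like that of ADH7, the probes of AAD3 and YOL166C were dim, at 28.7 to 57.7 and 19.2 to 42.3 units over both arrays and channels. YEL075W-A fell to −0.40 and −0.57 (adjusted p = 0.00762) and YKR041W to −0.41 and −0.45 (adjusted p = 0.0474). With normexp the means of AAD3, ADH7, YOL166C and YKR041W came to −0.31, −0.38, −0.28 and −0.26, and 0 of the 8 genes kept an adjusted p under 0.05. With the deposited log ratios SRY1 was at −0.07 in A and −0.46 in B, and AAD15 at −0.11 and −0.88.

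Most of the genes that fell lie next to each other near chromosome ends. In the R64 order of protein-coding genes, AAD3, RDS1 and ADH7 are the genes numbered 2, 3 and 4 from the right end of chromosome III, AAD15 is number 2 from the left end of chromosome XV, and SRY1 is number 6 from the left end of chromosome XI. YOL166C carries the systematic name next to that of AAD15, and YEL075W-A lies by name near the left end of chromosome V. Neither has a place in that order. Of the 6 placed genes that fell, 5 were among the outermost 15 genes of an end, a limit set after the values were seen, compared with 7.85% of all placed probes. Of the 10 that rose, SOR2 was.

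The low values did not run on into the chromosome arm at the same size. Next to ADH7, PAU3 was at −0.33 and −0.17 and YCR102C, number 6 from the end, at −0.11 and −0.09. Next to AAD15, BDS1 was at −0.18 and −0.01. The probes of HMRA1 and HMRA2, genes of the silent mating cassette farther in on chromosome III, were at 0.05 and −0.11 and at 0.05 and −0.02. Whether these probes read the cassette alone was not tested, so their values do not show its state. Over all 443 probes of the outermost 15 genes, the median was −0.06 (all probes 0.00). At limma's unadjusted p under 0.05, 60 were lower and 19 higher, compared with 2.94% and 3.56% of all probes. Below 0 in both replicates were 181, and above 0 were 78, compared with 22.3% and 21.1% of all probes. With the repeated COS, YRF1, PAU, DAN and TIR families set aside, 402 probes had a median of −0.05. Of these, 35 were lower and 19 higher at that p, to be set against the same 2.94% and 3.56%.

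**Figure D2:**
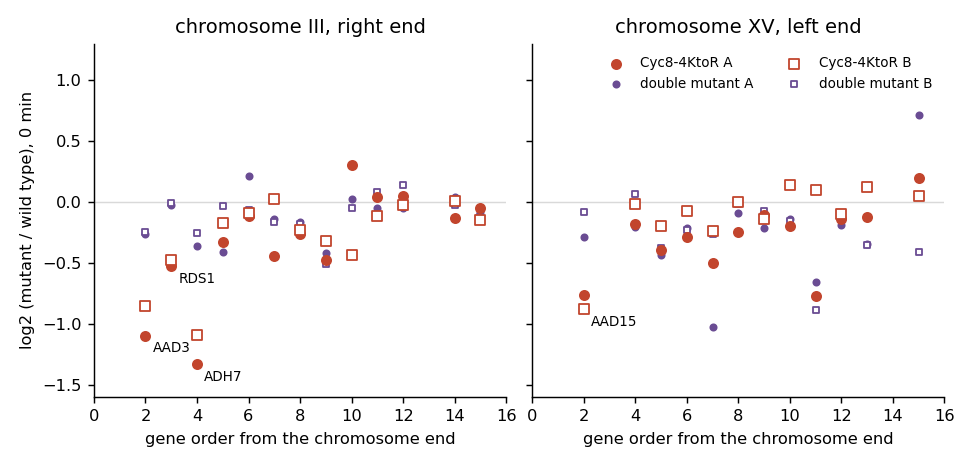
Log2 ratio of mutant over wild type at 0 min for the outermost 15 protein-coding genes of the right end of chromosome III and the left end of chromosome XV, by their order from the end. Large red symbols are Cyc8-4KtoR cells (filled, replicate A, and open, replicate B), and small purple symbols the double mutant. AAD3, RDS1, ADH7 and AAD15 lie lowest in Cyc8-4KtoR cells and nearer to 0 in the double mutant. These genes were selected because they fell in Cyc8-4KtoR cells.

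The repeated families of chromosome ends were also low, but none of their genes passed. The 8 Y' helicase genes (YRF1), which copies at many ends share, all lay below 0 in both replicates, with medians of −0.10 in A and −0.57 in B. At limma's unadjusted p under 0.05, 0 of the Y' genes were lower, compared with 2.94% of all probes. Of the 12 COS genes, which encode membrane proteins that aid protein sorting to the vacuole, 11 were below 0 in both replicates (22.3% of all probes were; median −0.34) and 6 were lower at an unadjusted p under 0.05, compared with 2.94% of all probes. COS8 was at −2.12 in A and only −0.32 in B. Of the 30 DAN, TIR and PAU genes, cell wall mannoproteins of anaerobic growth, 24 had a mean below 0 (50.6% of all probes had) and 24 were below 0 in both replicates (median −0.25), and 20 were lower and 1 higher at that p, compared with 2.94% and 3.56% of all probes. Many members of these families are alike in sequence and may cross-hybridize, so that their probes are not taken as separate measurements. The medians kept their sign with normexp (−0.33 for Y' genes, −0.28 for COS and −0.22 for the mannoproteins) and with the deposited log ratios (−0.61, −0.43 and −0.24).

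The genes that rose included regulators, a cytochrome and a cell wall protein. STP4 (YDL048C), which encodes a putative zinc finger transcription factor, was at 1.90 in A and 0.92 in B, a mean of 1.41 ± 0.70 (SD, n = 2) or 2.65-fold (adjusted p = 0.0307). GAT2 (YMR136W), of the GATA family of transcription factors, was at 1.47 and 0.72 (2.14-fold by the mean, adjusted p = 0.0491), and MIG2 (YGL209W), a repressor that acts beside Mig1 on glucose-repressed genes, at 0.66 and 0.49 (adjusted p = 0.0432). All were higher in both replicates and larger in A. CWP1 (YKL096W), a mannoprotein of the cell wall, was at 1.79 and 0.65 (mean 1.22 ± 0.80, SD, adjusted p = 0.0205), from 19904 units in the mutant and 5426 in the wild type on array A and 9051 and 5702 on array B. GUP2 (YPL189W), a membrane protein with a likely role in glycerol uptake, was at 1.69 and 0.65 (adjusted p = 0.0205). The change of CWP1 was thus 3.45-fold in A and 1.57-fold in B, and that of GUP2 3.23-fold and 1.57-fold.

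CYC1 (YJR048W), iso-1-cytochrome c, carries electrons in the respiratory chain. It was at 0.76 and 0.54, a mean of 0.65 ± 0.15 (SD, n = 2; adjusted p = 0.0205). MBR1 (YKL093W), known for a role in mitochondrial function, was at 0.72 and 0.39 (adjusted p = 0.0491). SOR2 (YDL246C), which encodes a sorbitol dehydrogenase-like protein, was at 0.68 and 0.80 (adjusted p = 0.0205), and its close copy SOR1, whose transcript the probes may not separate, at 0.65 and 0.23. The SOR2 probe was dim, with 61.7 units in the mutant and 31.0 in the wild type on array A, and 29.9 and 18.2 on array B. With normexp the mean of SOR2 was 0.27, against 0.74, and that of GUP2 0.66, against 1.17. RRM3 (YHR031C), a DNA helicase that helps replication forks past bound proteins, had the smallest change of the 9, 0.33 and 0.31 (adjusted p = 0.0432). With the deposited log ratios it was at 0.02 in A and 0.31 in B.

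The probe with the largest mean among those well above background was TPO2 (YGR138C), a polyamine exporter of the plasma membrane. It was at 4.11 in A and 1.25 in B, that is 17.2-fold and 2.38-fold, and passed only with the replicate block (adjusted p = 0.0115, and 0.105 without it). On array A its signal was 7362 units in the mutant and 377 in the wild type, and on array B 667 and 299. The arrays thus differed more in the mutant signal than in the wild-type signal. Culture, dye and slide differ together between the 2 arrays and cannot be told apart. HSP12 (YFL014W), a small heat shock protein that protects membranes, was at 2.41 and 0.57 (adjusted p = 0.00705 with the block and 0.13 without it). Of the 76 probes that passed with the block, all had the same sign in both replicates, 69 were well above background on both arrays in both channels, and 43 of the 49 higher ones lay higher in A than in B.

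Genes of respiration shared a direction. Of 34 respiratory chain and ATP synthase genes, 33 had a mean above 0, compared with 49.4% of all probes, and 28 were above 0 in both replicates, compared with 21.1%. The medians were 0.22 in A and 0.14 in B. CYC1 rose and 0 genes fell, compared with 0.163% and 0.131% of all probes. With the block, which called 0.799% of all probes higher, 3 genes passed. They were CYC1, ATP2 (0.48 and 0.11), the beta subunit of the ATP synthase, and QCR9 (0.32 and 0.26), a subunit of the cytochrome bc1 complex. With the deposited log ratios ATP2 was at −0.12 and 0.11. INH1, which inhibits the ATP synthase and is not on the list, was at 0.69 and 0.31 and also passed only with the block (adjusted p = 0.0185). COX5B, the subunit used in the absence of oxygen, lay lowest, at 0.13 and −0.30. HAP4, the activating subunit of the complex that switches respiratory genes on, was at 1.05 and 0.34 (adjusted p = 0.0175 with the block and 0.357 without it). The list's median was 0.21, and 0.20 with normexp and 0.21 with the deposited log ratios.

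Of the 18 enzymes of the tricarboxylic acid (TCA) cycle, 14 had a mean above 0 (median 0.12), compared with 49.4% of all probes. The medians were 0.22 in A and 0.04 in B. None of these enzymes passed without the block. ACO1, aconitase, was at 1.27 and 0.36 (adjusted p = 0.0629, and 0.023 with the block), IDH1 at 0.57 and 0.21, and SDH1 at 0.62 and 0.09. CIT2, the citrate synthase of the peroxisome, was at −0.36 and −0.38. The wider list of 49 glucose-repressed genes had a median of 0.26 in A and −0.03 in B. Of these genes 40 were above 0 in A and 19 in both, compared with 49.9% and 21.1% of all probes. CYC1 was the only one that rose, compared with 0.163% of all probes. POT1, a thiolase of fatty acid oxidation, was at 2.76 in A and −0.03 in B, with the wild type well above background on 1 of the 2 arrays. SUC2, GAL1 and HXT2, well-known targets of glucose repression, had means of −0.17, −0.19 and −0.24.

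Among 22 hexose transporter and glucose sensing genes, MIG2 rose, compared with 0.163% of all probes. HXT1, a low-affinity glucose transporter used at high glucose, was at 0.42 and 0.71, and HXT3, of the same kind, at 0.32 and 0.33. Neither passed (adjusted p = 0.357 and 0.721). HXT6 and HXT7, nearly identical high-affinity transporters, were at 0.39 and −0.49 and at 0.35 and −0.49, and GSY1, a glycogen synthase, at 0.43 and −0.61. The replicates disagreed in sign for all 3. MIG2 also belongs to the 19 DNA-binding repressors known to recruit Tup1-Cyc8, and was the one that rose there. NRG1 (1.24 and 0.29), which acts in glucose repression, and CUP9 (0.57 and 0.23), which represses peptide uptake, passed only with the block. The fit with the block called 0.799% of all probes higher. MIG1 was at 0.10 and −0.15.

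**Figure D3:**
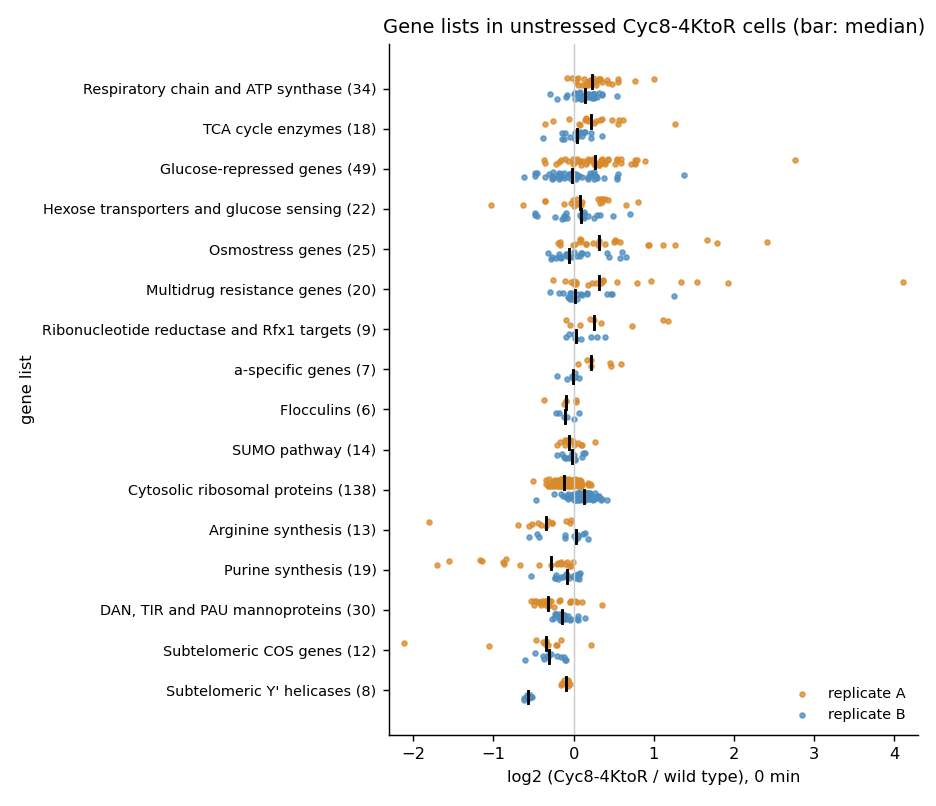
Log2 ratio of Cyc8-4KtoR over wild type at 0 min for the members of 16 gene lists (number of probes in brackets), orange for replicate A and blue for replicate B, with the median as a bar. The respiratory list has medians of 0.22 and 0.14, and the Y' helicase list of −0.10 and −0.57.

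Of 25 genes that rise under osmotic stress, CWP1 rose and 0 fell in the unstressed mutant, compared with 0.163% and 0.131% of all probes. With the block HSP12, GPP2 and GRE2 passed as well, while 0.799% of all probes were higher with it. GPP2, a glycerol-3-phosphatase that makes the osmolyte glycerol, was at 1.67 and 0.41, and GRE2, a methylglyoxal reductase, at 1.11 and 0.60. These 4 genes were past the cutoff (1.17% of all probes were, upward). The list as a whole had a median of 0.32 in A and −0.05 in B. Above 0 in both replicates were 9 of its genes, compared with 21.1% of all probes. In wild-type cells after 30 min in 1.2 M sorbitol, whose arrays share the unstressed wild-type reference, the mean log2 ratio was 6.67 for HSP12, 5.54 for GPP2, 4.25 for GRE2 and 3.22 for CWP1, above the values of the unstressed mutant. GPD1, which makes the precursor of glycerol, was at 0.94 and 0.17 in the unstressed mutant, and ENA1, a sodium pump, at −0.17 and −0.10. The trehalose and glycogen genes had a median of 0.36 in A and −0.25 in B. Of the 18, 0 were above 0 in both, compared with 21.1% of all probes.

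The ribonucleotide reductase genes and targets of Rfx1, induced by DNA damage, leaned up in the mutant, mainly in replicate A (medians 0.26 in A and 0.03 in B). Of 9 genes, 7 were above 0 in both replicates (median 0.13), compared with 21.1% of all probes, and 0 passed in either fit. HUG1, a small inhibitor of the reductase, was at 1.12 and 0.40 (adjusted p = 0.215), RNR2 and RNR4, its small subunits, at 1.18 and 0.22 and at 0.73 and 0.30, and RNR3, the damage-induced large subunit, at 0.33 and 0.09. RFX1 itself was at 0.08 and 0.02.

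The 20 multidrug resistance genes had a median of 0.17, with 0.31 in A and 0.02 in B. Of these genes 10 were above 0 in both replicates, compared with 21.1% of all probes. Past the cutoff upward were 5, compared with 1.17% of all probes. Beside TPO2 they were TPO1, another polyamine exporter (1.54 and 0.48), RTA1 (1.33 and 0.47), RSB1, which moves sphingoid bases (1.92 and 0.10), and AQR1 (0.97 and 0.42). Only TPO2 passed, and that with the block, which called 0.799% of all probes higher. PDR12, a pump for weak organic acids that is not on the list, was at 1.63 and 0.64, and had the smallest adjusted p of any probe with the block (1.55e-05, and 0.155 without it). BIO3, BIO4 and BIO5, 3 adjacent genes of biotin synthesis and precursor uptake, were at 1.21 and 0.32, 1.12 and 0.34, and 1.41 and 0.26, and all 3 passed only with the block. PEX18, which helps import proteins into the peroxisome, was at 2.17 and 0.46 and did the same (adjusted p = 0.0101).

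Amino acid and purine genes were lower in replicate A, and 0 of them passed without the block. ARG1, argininosuccinate synthase, was at −1.80 and −0.56 (adjusted p = 0.00844 with the block, and 0.302 without it), and HIS4, an enzyme of histidine synthesis, at −1.71 and −0.54 (0.00705 and 0.395). All 13 arginine genes lay below 0 in A (median −0.35), where 49.9% of all probes were above 0, while the median in B was 0.02. All 19 purine genes did so in A (median −0.29) and 12 in B (−0.08), with ADE17 at −1.55 and −0.23 and ADE13 at −1.17 and −0.09. The wild-type cultures differed in the same genes: wild type B lay 0.90 below wild type A for ARG1, 0.92 for HIS4 and 1.65 for ADE17. On the joined scale ARG1 was at 0 and −0.90 in the wild-type cultures and at −1.80 and −1.45 in the mutants, which did not overlap. ADE17 was at 0 and −1.65 in the wild-type cultures and at −1.55 and −1.87 in the mutants, which overlapped. What part the isolates have in these values was not tested.

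HO, the endonuclease of mating type switching, was at −0.88 and −1.22 and passed only with the block (adjusted p = 0.0011, and 0.526 without it). Its wild-type level was 0.77 higher in culture B than in culture A. Limma's standard error for HO was 0.40 without the block and 0.12 with it. ARR3 and ARR2, neighboring genes for arsenite export and arsenate reduction near the right end of chromosome XVI, differed between the mutant replicates, at −0.56 and −3.17 and at −0.13 and −1.83. ARR3 was well above background in the mutant on 1 of the 2 arrays. ADH1, the main alcohol dehydrogenase of fermentation, was at −1.64 in A and −0.19 in B, and GAC1, a regulator of glycogen synthesis, at 2.10 and −0.31.

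**Figure D4:**
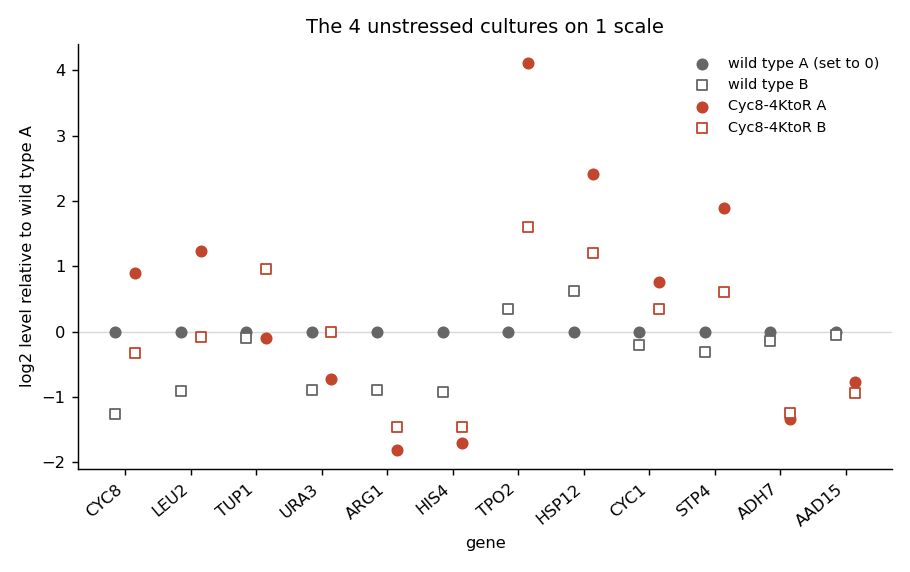
Log2 level of 12 genes in the 4 unstressed cultures, relative to wild type A (set to 0). Gray symbols are wild-type and red symbols Cyc8-4KtoR cultures, filled for replicate A and open for B, and replicate B was joined through the array of wild type against wild type. The mutant and wild-type cultures overlap for CYC8, LEU2, TUP1 and URA3 and are apart for the other 8 genes.

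Other genes under Tup1-Cyc8 showed little difference. Of 20 well-known targets, 0 passed in either fit (median 0.06). In both replicates 8 were above and 5 below 0, compared with 21.1% and 22.3% of all probes. HUG1 and RNR2 were the 2 past the cutoff. The 6 flocculin genes, which drive cell clumping, had means of −0.23 to 0.05. The 7 a-specific genes, which Tup1-Cyc8 represses in cells of the other mating type, were above 0 in A (median 0.22) and centered on 0 in B (−0.01). The 14 genes of the SUMO pathway had means of −0.14 to 0.14, and 0 passed. Cytosolic ribosomal protein genes had medians of −0.12 in A and 0.13 in B, and ribosome biogenesis genes of −0.08 and 0.17, so that these large groups moved in opposite directions on the 2 arrays. Proteasome and mitochondrial ribosomal genes had medians of 0.07 and 0.06, with 0 genes passing.

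The double mutant, which carries Tup1K270R beside the same CYC8 allele, was set against Cyc8-4KtoR cells by the difference of their ratios, in which the shared wild-type culture cancels. Its replicate B array carries labels that disagree on the dye, and the title and channel labels were followed over the source name. No probe passed (0 of 6129, limma), with 55 at an unadjusted p under 0.05 (0.897%), 28 higher (0.457%) and 27 lower (0.441%), and 0 passed with the block (208 at an unadjusted p under 0.05). For STP4, GAT2, CWP1 and GUP2 the double mutant minus Cyc8-4KtoR was 0.64 ± 0.35, 0.39 ± 0.30, 0.18 ± 0.28 and 0.54 ± 0.27 (limma's standard error). SRY1, YEL075W-A and YKR041W were as low in the double mutant, at −0.50 and −0.50, −0.53 and −0.60, and −0.35 and −0.42. The other 5 genes that fell in Cyc8-4KtoR cells were nearer to 0 there. These genes were selected for low values on the same Cyc8-4KtoR arrays, and such a selection alone can put another group nearer to 0. Their difference between the strains is therefore not a separate test.

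In the double mutant ADH7 was at −0.36 and −0.25, AAD3 at −0.26 and −0.25, AAD15 at −0.29 and −0.08, YOL166C at −0.02 and 0.18, and RDS1 at −0.02 and 0.00. The difference from Cyc8-4KtoR was 0.95 ± 0.15 for YOL166C (adjusted p = 0.0892), 0.91 ± 0.19 for ADH7 (0.503), 0.64 ± 0.14 for AAD15 (0.503), 0.73 ± 0.18 for AAD3 (1) and 0.49 ± 0.13 for RDS1 (1). YOL166C passed when the arrays of the isolate with the extra copies were left out of the fit, where 1 probe did.

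Tup1K270R cells differed from Cyc8-4KtoR cells at more probes. For Tup1K270R minus Cyc8-4KtoR, 13 probes passed (0.212%), 6 higher (0.0979%) and 7 lower (0.114%), and 108 did with the block (1.76%), 44 higher (0.718%) and 64 lower (1.04%). Higher in Tup1K270R cells were ADH7, AAD3, AAD15, YOL166C, YEL075W-A and SRY1, by 1.29 ± 0.19, 1.06 ± 0.18, 1.01 ± 0.14, 0.79 ± 0.15, 0.66 ± 0.10 and 0.71 ± 0.10 (limma's standard error). Lower were GAT2 and CWP1, both by 1.72, GUP2 by 1.48, INH1 by 1.01, SOR2 by 0.98, CYC1 by 0.95 and QCR9 by 0.53. In Tup1K270R cells themselves CWP1 was at −0.36 and −0.64, CYC1 at −0.36 and −0.24 and GAT2 at −0.73 and −0.52, below 0 in both replicates, whereas ADH7 was at 0.14 and 0.02. As for the main comparison, 0 probes passed with normexp and loess, with the deposited log ratios or without replicate A, and 6 without replicate B. Replicate A of Tup1K270R cells is the isolate with extra copies of a chromosome IV region, and without its arrays 0 probes passed.

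**Figure D5:**
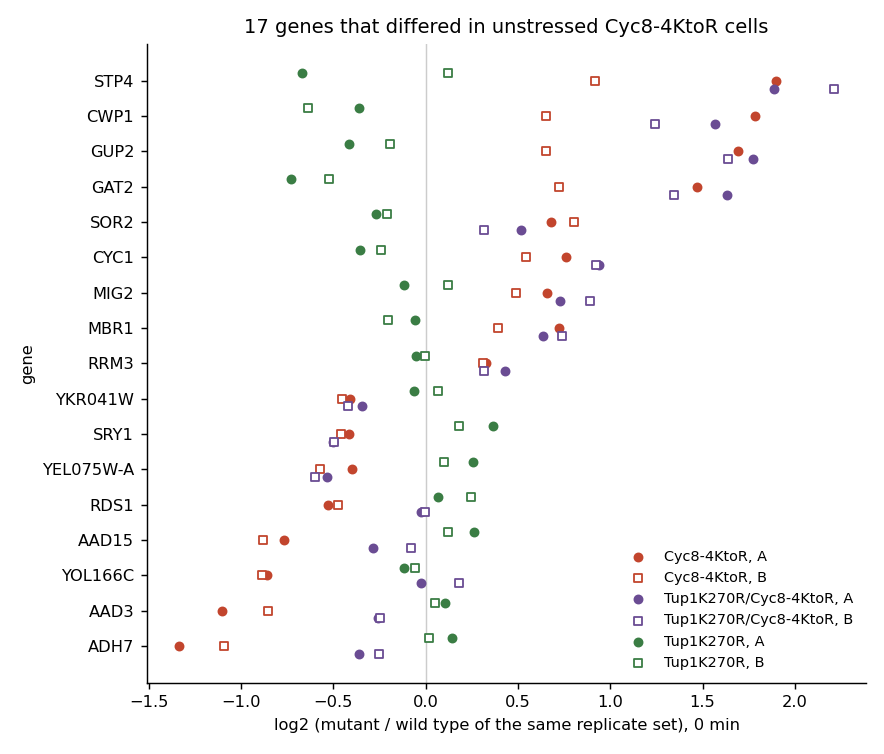
Log2 ratio of mutant over the wild type of its own replicate set at 0 min, for the 17 genes that passed limma's adjusted p in Cyc8-4KtoR cells and were well above background. Red is Cyc8-4KtoR, purple the double mutant and green Tup1K270R, filled for replicate A and open for B. Of ADH7, AAD3, YOL166C, AAD15 and RDS1, the value nearest to 0 in Cyc8-4KtoR cells is −0.48 (RDS1, B), and the lowest in the double mutant is −0.36 (ADH7, A).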

How the data were processed

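The authors hybridized Cy3- and Cy5-labeled RNA on 2-color Agilent yeast arrays (6256 yeast probes with 2 spots each, beside 536 control spots) and scanned them. The submitters' processing notes name Feature Extraction 10.5.1.1. The deposited scanner files give, per the file headers, background-subtracted intensities of each channel and spot, and mean, median and background intensities. The ratio of Cy5 over Cy3, deposited as log10 values, had been background-subtracted, detrended and dye-normalized by the authors, and the deposited series matrix holds them as log2 ratios, equal within 5e-04.

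Here the log2 ratio of the background-subtracted intensities was normalized with loess within each array, fitted without control spots. Outlier spots were left out after that step. The ratios were put in the direction of sample over reference and averaged for each probe. Probes with a value on all 23 arrays were kept (6180), 51 from YDR211W to YDR261C were left out, and 5667 of the 6129 tested could be placed by systematic name in the R64 annotation, which served for names and gene order only. Tests used limma 3.58.1 (R 4.3.3, data.table version 1.17.8) with lmFit, eBayes and Benjamini-Hochberg adjustment over all probes, on 22 arrays in 11 groups. The fit was tested on simulated data. The replicate letter pairs the arrays because, per the labels, it marks a shared reference culture and dye. Deviations from group means of same-lettered arrays correlated at r = 0.089 to 0.679, above 0.1 in 54 of 55 pairs of groups.

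Where all arrays of a group were at background, no size is given. The genes, gene lists and alternatives were chosen with earlier results of these data known. Genes were named from the probes with an adjusted p under 0.05, those past the cutoff with 1 sign in both replicates, leading members of lists, the strain loci and the genes the study names. Genes named only as neighbors or for replicates that differ, YKR041W aside, were chosen after their values were seen. The alternatives were other background corrections and normalizations, filters, blocks and sets of arrays. Python 3.11.15 with numpy 2.4.6, pandas 2.3.3, scipy 1.17.1 and matplotlib 3.10.9 made the tables and figures.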

Additional observations from a re-analysis of the deposited data

Results flagged for a closer look

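The 13 probes whose ratio differed between Tup1K270R and Cyc8-4KtoR cells by the test of the difference itself are listed for that reason. The log2 difference of Tup1K270R minus Cyc8-4KtoR was −1.72 for GAT2, −1.72 for CWP1, −1.48 for GUP2, −1.01 for INH1, −0.98 for SOR2, −0.95 for CYC1 and −0.53 for QCR9. It was 0.66 for YEL075W-A, 0.71 for SRY1, 0.79 for YOL166C, 1.01 for AAD15, 1.06 for AAD3 and 1.29 for ADH7. For INH1 and QCR9 neither strain passed the test against wild type by itself in the fit without the block.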

How the results depend on the processing

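For Cyc8-4KtoR against wild type, 18 probes passed, compared with 0 for normexp and loess, for the deposited log ratios, for the series matrix and with only the mutant arrays at 0 min. The count was 6 with the double mutant's 30 and 60 min arrays of replicate B exchanged, and 0 to 11 with a replicate left out (a single remaining array takes its spread from the other groups). It was 12 to 17 with median centring, a background filter, the slide as a random block or the chromosome IV region kept in. With the replicate block 76 passed. Alternatives added after seeing the data gave 12 without the aneuploid Tup1K270R isolate, 38 with the slide as a fixed block, 4 without the double mutant's replicate B arrays, 1 with normexp, loess and the replicate block, and 5 with the deposited log ratios and the replicate block.

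The cutoff was passed by 97 probes, and by 33 with normexp, 55 after the background filter, 20 in both replicates and 80 to 201 with a replicate left out. For the double mutant minus Cyc8-4KtoR, 0 probes passed, and 0 to 1 with a replicate left out, 1 without the aneuploid isolate and 0 with the replicate block. For Tup1K270R minus Cyc8-4KtoR, 13 passed, and 0 with normexp, with the deposited log ratios, with the series matrix, with only the arrays at 0 min, with the 30 and 60 min arrays exchanged or without the aneuploid isolate. That count was 0 to 6 with a replicate left out, 2 without the double mutant's replicate B arrays, 57 with the slide as a random block, 43 as a fixed block, 108 with the replicate block, 61 with normexp and the replicate block, and 24 with the deposited log ratios and the replicate block. Of the 18 probes that passed, YPR027C, which was not above background, changed sign, to −0.022 with normexp, with or without the block. Of those called only with the block, ATP2 and YLR294C changed sign with the deposited log ratios, to −0.01 and −0.03. Of the 18 probes that passed, 18 did so with the block and 0 with normexp. The alternatives added after seeing the data are the same for every count. The cause of these differences was not tested. Fewer samples were fitted where arrays were left out, and dim probes are limited by their signal over background.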

Other observations

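Genes of other groups that passed only with the replicate block are given as values, without a cause. PHM8, a phosphatase of the phosphate regulon, was at 1.20 in A and 0.52 in B (limma, adjusted p = 0.00844 with the block and 0.359 without it), while the 19 phosphate genes had a median of −0.04. DUR12 (DUR1,2), which breaks down urea, was at −0.38 and −0.66 (0.0313 and 0.367), and the arginine catabolic genes CAR1 and CAR2, which did not pass, at −0.52 and −0.46 and at −0.32 and −0.43. WSC4, a sensor-like protein of the cell surface, was at 1.26 and 0.48 (0.0358 and 0.357). Of 26 cell wall genes, 24 had a mean above 0 (49.4% of all probes had), but 7 were above 0 in both replicates (21.1%). The medians were 0.21 in A and −0.02 in B, and CWP1 was the one that passed.

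YFL015C and YKL097C, reading frames named beside HSP12 (YFL014W) and CWP1 (YKL096W), passed with the block, but the wild type was not well above background for them on either array, and no size is given. AUS1, a sterol importer, was at −0.39 and −0.28 (0.0295 with the block and 0.105 without it), and ADH5, a minor alcohol dehydrogenase, at −0.69 and −0.16 (0.00705 and 0.965).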
